A study of Mus musculus with 8 samples.

Results

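The mitochondrial carriers and uncoupling proteins of mouse liver were taken from a table of counts as the genes whose symbol is Slc25a followed by a number, other than Slc25a1, Slc25a15 and Slc25a20, together with Ucp1, Ucp2 and Ucp3. This gave 47 of the 22013 genes listed, of which 45 had at least 1 count and 38 passed the filter on low counts and were tested. Mitochondrial carriers are membrane proteins that move metabolites, nucleotides, cofactors and ions across the inner mitochondrial membrane, which is otherwise closed to them. They form the solute carrier family SLC25, built from a repeated pair of membrane helices, and the uncoupling proteins are members of the same family. In hepatocytes they feed the urea cycle, gluconeogenesis, ketone body formation and oxidative phosphorylation, because each of these pathways has steps on both sides of that membrane.

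The series holds 8 libraries of poly(A)-selected liver RNA, 4 labelled resmetirom and 4 labelled control. Resmetirom activates the beta receptor of thyroid hormone, the form that predominates in hepatocytes, and acts little on the alpha receptor. The mice of the series are described as a model of steatohepatitis made with a diet of fructose, palmitate and cholesterol for 12 weeks, with resmetirom given intraperitoneally at 5 mg/kg/day for 8 weeks from week 4 onward, in a vehicle of 0.5% carboxymethyl cellulose sodium with 0.4% Tween-80. Whether the control mice ate this diet or received vehicle is not stated in their labels, and diet, vehicle and drug cannot be told apart where those differed. Strain, sex and age are not given in the sources used here, nor whether each library is 1 animal, and p-values therefore reflect only how far these libraries spread, which may be technical.

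Totals were 16787561 to 19887539 counts per library. Transcripts of the major urinary proteins (Mup genes), abundant secreted proteins of mouse liver, took 7.54%, 20.1%, 25.1% and 17.8% of counts in resmetirom replicates 1 to 4, and 4.32% to 7.05% in the control libraries. Resmetirom replicate 1 thus stood apart from the other resmetirom libraries in this share. The scaling factors (TMM, trimmed mean of M values) were 1.06 in that library, 0.804 to 0.879 in resmetirom replicates 2 to 4, and 1.08 to 1.16 in the control libraries. Levels of 1 gene between libraries are given in CPM, counts relative to a library total that these factors scale, and levels between genes in the deposited TPM, transcript abundances that correct for gene length and sum to the same total in each library. Scaled by library sizes only, all tested genes together had a median log2 fold change of -0.31 in place of -0.0043, and all directions below are relative to the TMM scaling.

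All 47 genes carry a mitochondrial term in the table's own annotation and 43 carry that of the inner membrane. The inner membrane term is missing for Slc25a2, Slc25a17, Slc25a46 and Slc25a53, of which Slc25a17 is known as a peroxisomal carrier and Slc25a46 as an outer membrane protein. The longest annotated coding sequence was between 800 and 1200 bases in 39 of the 47, with a median of 954 bases. The longest were Slc25a12 with 2031 and Slc25a13 with 2028 bases, followed by Slc25a25 with 1542, Slc25a24 with 1425, Slc25a54 with 1419 and Slc25a23 with 1401 bases. Slc25a12, Slc25a13, Slc25a23, Slc25a24 and Slc25a25 are known to carry calcium-binding domains in front of the carrier. The genes lay on 18 chromosomes, and 5 pairs were neighbours. Slc25a29 and Slc25a47 were divergent on chromosome 12 with 162 bases between them, Slc25a41 and Slc25a23 were 2056 bases apart, Slc25a54 and Slc25a24 6461 bases, Ucp3 and Ucp2 6904 bases, and Slc25a43 and Slc25a5 18448 bases. Neighbours could be unlike in level. Slc25a47 averaged 352 ± 37.2 TPM in resmetirom and 552 ± 155 TPM in control libraries, and Slc25a29 averaged 1.09 ± 0.140 TPM in resmetirom and 1.10 ± 0.334 TPM in control libraries (SD, n = 4 each).

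Levels spanned several orders of magnitude, with 7 of the 47 genes at a mean of 100 TPM or more over all libraries, 24 at 10 TPM or more and 11 under 1 TPM. The 5 highest, Slc25a5, Slc25a47, Slc25a39, Slc25a3 and Slc25a10, held 65.8% ± 1.72 of the summed TPM of the 47 genes in resmetirom and 68.6% ± 1.93 in control libraries (SD, n = 4 each). The summed TPM was 1749 to 2764 in the resmetirom libraries and 2587 to 3116 in the control libraries. The summed TMM-scaled CPM was 2913 to 3105 in resmetirom and 2636 to 3169 in control libraries. Both ranges overlap between the groups. In TPM the overlap rests on resmetirom replicate 1 (2764), while replicates 2 to 4 (2037, 1749 and 2132) lay below all control libraries. The plot of TPM levels orders the genes by their mean over all libraries. Within it Ucp2 took 3.52% ± 0.504 of the summed TPM in resmetirom and 1.76% ± 0.230 in control libraries (SD, n = 4 each).

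**Figure D1:**
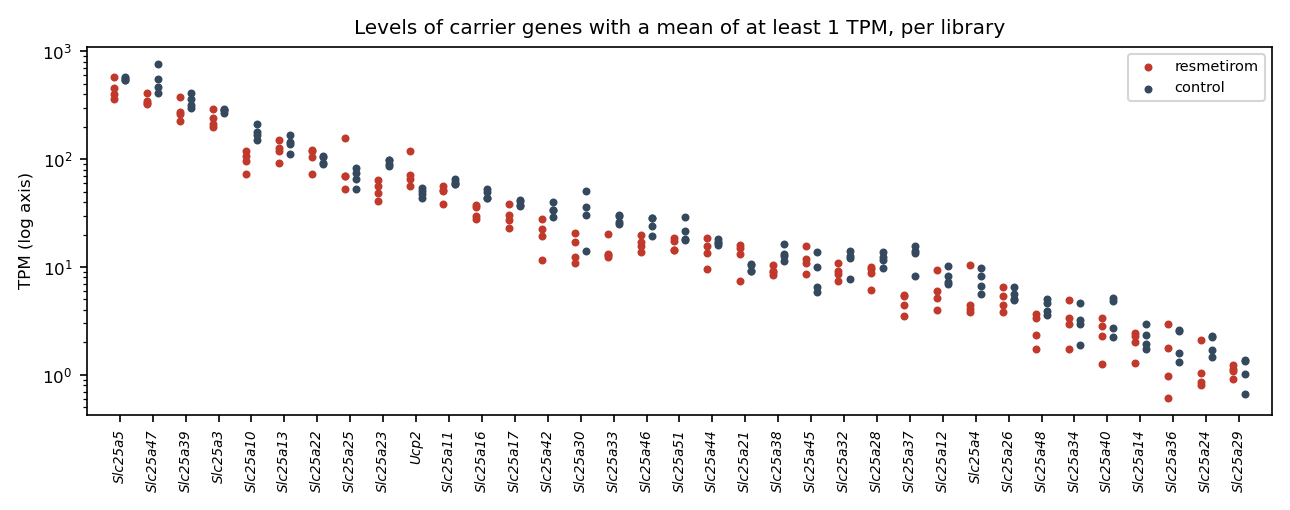
Level in TPM (log axis) of each carrier gene reported here with a mean of at least 1 TPM, with 1 point per library, resmetirom left of control for each gene and genes ordered by mean. Slc25a5 stands at the high end with 452 ± 93.8 TPM in resmetirom and 557 ± 14.6 TPM in control libraries (SD, n = 4 each).

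With resmetirom Ucp2, Slc25a22 and Slc25a21 rose and Slc25a37 fell, while the other 34 tested genes did not pass the test. The test was edgeR's quasi-likelihood test with Benjamini-Hochberg adjustment over all 12207 genes tested, and a gene is called when its adjusted p is under 0.05. The 3 genes called higher are 7.89% of the 38 tested, beside 2.60% of all tested genes, and the 1 called lower is 2.63%, beside 1.99%, with 4.59% of all genes called in either direction. All 4 resmetirom libraries lay above all 4 control libraries for 8 of the 38 and below them for 3, which is 21.1% and 7.89%, beside 6.32% and 5.50% of all tested genes. An unadjusted p under 0.05 was found for 12 of the 38 and for 2177 of all 12207 genes. The median log2 fold change of the 38 was 0.09, beside -0.0043 for all genes. Scaled by library sizes alone it was -0.21 (all genes -0.31), and from log2(TPM + 1) it was -0.35 (all genes -0.41). The split of calls moved with the scaling too, for the carriers as for all genes. With DESeq2, 5 of 40 tested carriers were called higher and 2 lower, beside 3.85% and 2.85% of all genes. With library sizes only, 1 of 38 was called higher and 4 lower, beside 1.24% and 16.1% of all genes. After leaving Mup genes out of those sizes 3 of 38 were called higher and 4 lower, beside 1.86% and 3.60%. On the log2(TPM + 1) scale 1 of 38 was called higher and 12 lower, beside 0.991% and 38.1%.

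**Figure D2:**
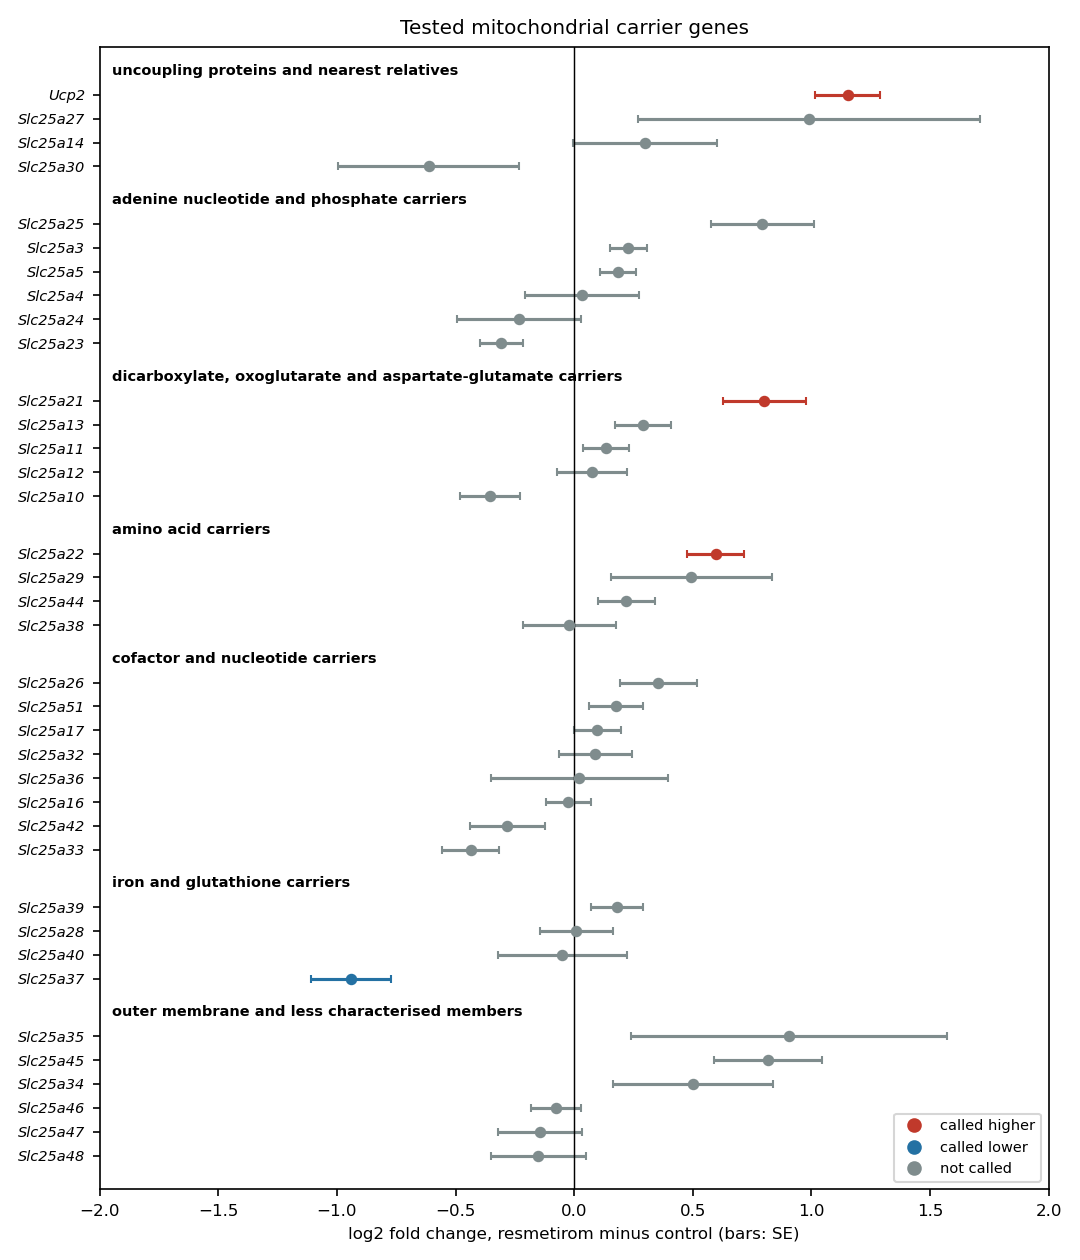
Log2 fold change of resmetirom minus control with its standard error for the tested carrier genes reported here, grouped by role, on the TMM scale. Ucp2, Slc25a21 and Slc25a22 (red) were called higher and Slc25a37 (blue) lower, and grey points did not pass.

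For both Ucp2 and Slc25a22, which rose, the sequence around a RefSeq transcription start (GRCm38.p6) is shown, since these are the called carriers with a listed start that at least 2 annotated coding transcripts share within 100 bases. The start of Slc25a22 lies inside the annotated gene, is 1 of 3 listed, and 5 of 14 coding transcripts begin within 100 bases of it, against 2 of 5 for that of Ucp2. Capitals mark a GC box (GGGCGG on either strand), and each window runs 5′ to 3′ on the gene's strand from 250 bases before to 50 after the start.
Ucp2, chr7:100493108-100493407, plus strand: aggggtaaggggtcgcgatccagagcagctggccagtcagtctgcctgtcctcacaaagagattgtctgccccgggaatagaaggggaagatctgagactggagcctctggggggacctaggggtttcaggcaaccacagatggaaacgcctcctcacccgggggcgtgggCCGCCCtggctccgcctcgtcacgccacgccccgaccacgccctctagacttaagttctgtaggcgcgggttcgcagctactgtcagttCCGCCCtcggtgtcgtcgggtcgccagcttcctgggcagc
Slc25a22, chr7:141434545-141434844, minus strand: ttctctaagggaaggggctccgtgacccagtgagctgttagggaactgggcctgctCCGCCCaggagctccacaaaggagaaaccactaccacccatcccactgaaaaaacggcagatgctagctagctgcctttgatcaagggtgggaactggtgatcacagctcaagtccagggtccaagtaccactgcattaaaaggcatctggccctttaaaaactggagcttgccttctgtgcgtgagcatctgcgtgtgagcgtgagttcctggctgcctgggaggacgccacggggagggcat
The Ucp2 window, with a GC content of 64.3%, holds 2 GC boxes, and the Slc25a22 window, with 56.3%, holds 1. A GC box was found in 35 of the 45 listed promoters of the carrier genes (77.8%, from 36 genes), beside 35.7% of all 32851 promoters of the same length. The other motifs searched on both strands were CCAAT, the E-box CACGTG and the nuclear receptor half-site AGGTCA, and neither window holds any of them. Of all promoters, 37.4% hold CCAAT, 7.15% CACGTG and 16.3% AGGTCA, beside 46.7%, 13.3% and 13.3% of the carrier promoters. The median GC content was 59% for the carrier promoters and 52.7% for all promoters.

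**Figure D3:**
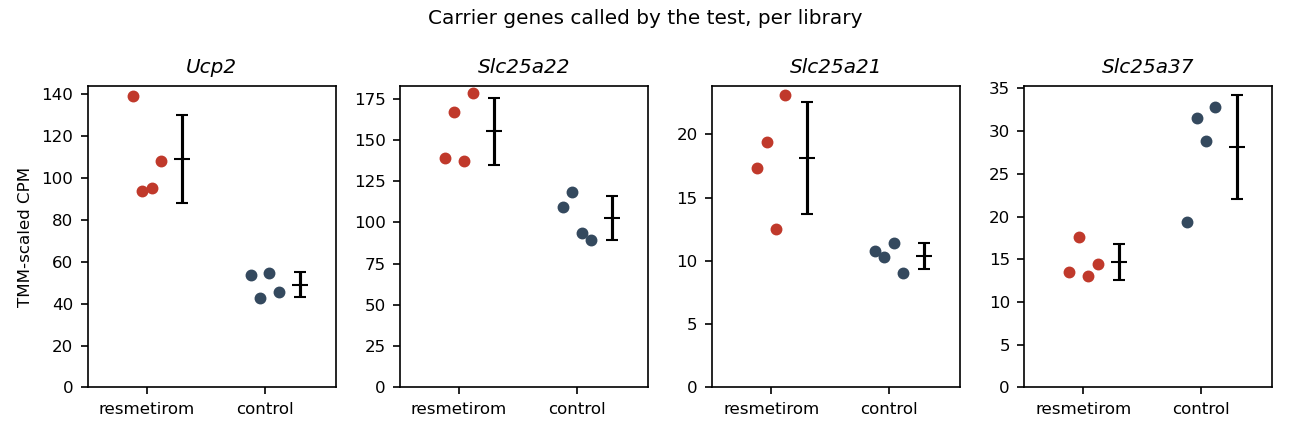
TMM-scaled CPM of Ucp2, Slc25a22, Slc25a21 and Slc25a37 in each library, resmetirom left and control right, with the mean and SD (bar) of the 4 libraries beside the points. In each panel the groups do not overlap: the resmetirom libraries are the higher ones in the first 3 panels and the lower ones for Slc25a37.

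Among the uncoupling proteins, Ucp2 was the abundant form. Ucp2 exchanges small dicarboxylates of the citric acid cycle for phosphate and limits the oxidation of glucose-derived carbon, and in liver it is known from both Kupffer cells and fat-laden hepatocytes. Ucp2 (ENSMUSG00000033685, chromosome 7, 100493337 to 100502020, plus strand) was at 139, 94.0, 95.5 and 108 CPM in the resmetirom libraries and at 53.6, 42.9, 54.6 and 45.5 CPM in the control libraries. The lowest resmetirom library was well above the highest control library. The means were 109 ± 21.0 CPM in resmetirom and 49.1 ± 5.84 CPM in control libraries (SD, n = 4 each), and the log2 fold change was 1.15 (SE 0.14, adjusted p = 0.000478). The rise remained without resmetirom replicate 1, the library with the highest value, at 1.01 (adjusted p = 0.000489). From log2(TPM + 1) values it was 0.61 (adjusted p = 0.0372). With a pseudocount of 0.1 in place of 1 it was 0.62 and did not pass (adjusted p = 0.0599). In the authors' deposited table Ucp2 had a log2 fold change of 0.68 with an adjusted p of 0.00116.

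None of the 8 macrophage and Kupffer cell markers examined beside Ucp2 (Adgre1, Clec4f, Cd68, Csf1r, C1qa, C1qb, Lyz2 and Ptprc) was called by edgeR, none had an unadjusted p under 0.05, and DESeq2 called none. Their median log2 fold change was -0.11. Their summed level was 798, 663, 459 and 327 CPM in resmetirom replicates 1 to 4 and 539 to 779 CPM in the control libraries, so the groups overlap. The 5 lymphocyte markers were low, with sums of 3.13 to 9.58 CPM in resmetirom and 1.68 to 4.09 CPM in control libraries. The 4 tested with edgeR were all on the higher side with resmetirom, at log2 fold changes of 0.45 to 2.16 (median 1.06). None of them was called and 2 had an unadjusted p under 0.05, and DESeq2 called 1 of 5 higher. In bulk RNA, more cells of a type and more RNA per cell cannot be told apart, and the part of either cell type in the rise of Ucp2 was not tested. Dnajb13, on the opposite strand, overlaps 4.36% of the exonic bases of Ucp2, and the sources used here do not say whether counting used strand.

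The other uncoupling proteins were near the limit of detection. Ucp1, which makes heat in brown fat, had 0 counts over the 4 resmetirom libraries and 1 count over the 4 control libraries. Ucp3, the muscle form, had 12 counts in resmetirom and 25 in control libraries, and neither was tested. Skeletal muscle markers were nearly absent too, with sums of 0.260 to 0.451 CPM in resmetirom and 0.0466 to 0.363 CPM in control libraries, and Acta1, Myh1, Myh4 and Tnnt3 had 0 CPM in all of them. Of the nearest relatives, Slc25a30, a kidney-enriched carrier, was the only one with a mean above 10 TPM. It was at 43.9, 31.5, 54.8 and 35.2 CPM in resmetirom and at 102, 27.8, 68.2 and 55.5 CPM in control libraries, a change of -0.61 (SE 0.38, adjusted p = 0.492). The lowest and the highest library were both control libraries. Slc25a14 and Slc25a27, best known from brain, were low: Slc25a14 averaged 2.38 ± 0.603 CPM in resmetirom and 1.93 ± 0.496 CPM in control libraries, and Slc25a27 averaged 0.766 ± 0.433 CPM in resmetirom and 0.389 ± 0.367 CPM in control libraries (SD, n = 4 each).

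The carriers of adenine nucleotides and phosphate supply ATP synthase with its substrates. None of the 6 tested was called by edgeR, and DESeq2 called 1 higher. At an unadjusted p under 0.05 edgeR had 3 higher and 1 lower, beside 2177 of all 12207 genes in either direction. Slc25a5, the exchanger of ADP for ATP that dominates in liver, was at 430, 401, 406 and 446 CPM in resmetirom and at 379, 374, 368 and 361 CPM in control libraries. Its groups do not overlap, and the change on the log2 scale was 0.18 (SE 0.08, adjusted p = 0.227). Slc25a3, which imports the phosphate, was at 281, 270, 288 and 305 CPM in resmetirom and at 243, 260, 241 and 233 CPM in control libraries, a change of 0.23 (SE 0.08, adjusted p = 0.139). Both small differences turned with the scaling: Slc25a5 was at -0.12 and Slc25a3 at -0.078 with library sizes only. With Mup genes left out of those sizes they were at 0.071 and 0.12. A processed pseudogene of Slc25a5 is annotated, and the sources used here do not say how reads shared with it were counted. The muscle and heart form of the exchanger, Slc25a4, was at 12.1, 5.91, 7.12 and 6.78 CPM in resmetirom and 6.05 to 9.91 CPM in control libraries. Its ratio to Slc25a5 was 0.00950 to 0.0181 in resmetirom and 0.0103 to 0.0173 in control libraries (TPM), which overlap.

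Slc25a23, Slc25a24 and Slc25a25 encode calcium-regulated exchangers of ATP-magnesium for phosphate, which set the total adenine nucleotide pool of the matrix. Slc25a25 was at 284, 169, 142 and 163 CPM in resmetirom and at 110, 85.7, 117 and 125 CPM in control libraries. Slc25a23 was at 123, 138, 119 and 116 CPM in resmetirom and at 144, 167, 144 and 157 CPM in control libraries. The groups did not overlap for either gene, with Slc25a25 on the higher side and Slc25a23 on the lower side with resmetirom. Neither was called, with 0.79 (SE 0.22, adjusted p = 0.0799) for Slc25a25 and -0.31 (SE 0.09, adjusted p = 0.0800) for Slc25a23. Slc25a25 passed with DESeq2 (0.80, adjusted p = 0.00298). It also passed when resmetirom replicate 1, its highest library, was left out (0.53, adjusted p = 0.0419) or resmetirom replicate 3 (0.91, adjusted p = 0.0437). These were 3 of 19 alternatives run. Slc25a25 did not pass with library sizes only (0.52, adjusted p = 0.239) or from log2(TPM + 1) values (0.23, adjusted p = 0.5). Slc25a23 passed with library sizes only (-0.61, adjusted p = 0.00606), where 16.1% of all genes were called lower, and with Mup genes left out of those sizes (-0.42, adjusted p = 0.0193), where 3.60% were. It also passed from log2(TPM + 1) values (-0.83, adjusted p = 0.00581).

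The ratio of Slc25a23 to Slc25a25 within a library does not depend on its scaling. It was 0.406, 0.801, 0.777 and 0.700 in the resmetirom libraries and 1.30, 1.87, 1.21 and 1.18 in the control libraries (TPM), so Slc25a25 exceeded Slc25a23 per length in every resmetirom library and in no control library. The means were 0.671 ± 0.182 in resmetirom and 1.39 ± 0.322 in control libraries (SD, n = 4 each). The pair was listed for comparison with earlier results of these libraries known, so the ratio is a description with no test. Slc25a24 was at 2.30 to 4.34 CPM in resmetirom and 2.84 to 4.09 CPM in control libraries. Slc25a41, the calcium-independent relative, had 0 counts in all 8 libraries, which allows up to 0.0206 CPM over them (3 counts of the summed total), and Slc25a31, the testis form of the ADP and ATP exchanger, had 3 counts in resmetirom and 7 in control libraries.

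**Figure D4:**
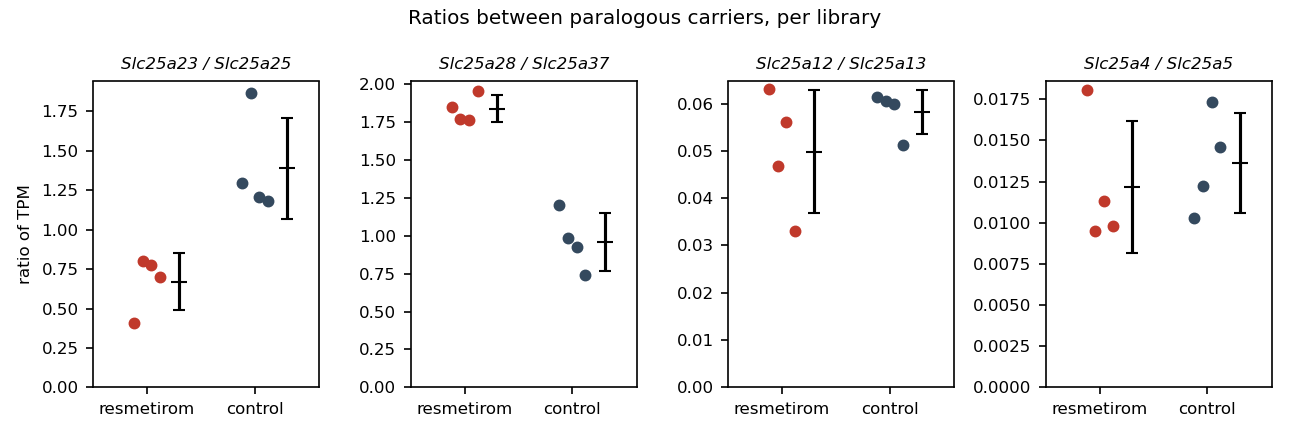
Ratio of TPM between paralogous carriers in each library, resmetirom left and control right, with the mean and SD (bar) of 4 libraries. The groups are apart for Slc25a23 to Slc25a25 (0.406 to 0.801 in resmetirom, 1.18 to 1.87 in control libraries) and for Slc25a28 to Slc25a37 (1.77 to 1.96 in resmetirom, 0.738 to 1.20 in control libraries), and overlap for Slc25a12 to Slc25a13 and for Slc25a4 to Slc25a5.

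Carriers of dicarboxylates and of aspartate and glutamate connect the citric acid cycle with the cytosol. Of the 5 tested, Slc25a21 was called higher and none lower. Slc25a21 (ENSMUSG00000035472, chromosome 12, 56712634 to 57197472, minus strand) carries oxoadipate, an intermediate of lysine and tryptophan breakdown, in exchange for oxoglutarate. It was at 17.4, 19.4, 12.5 and 23.1 CPM in resmetirom and at 10.8, 10.3, 11.4 and 9.05 CPM in control libraries. The groups came closest at resmetirom replicate 3 and control replicate 3. The log2 fold change was 0.80 (SE 0.18, adjusted p = 0.0205). This call was lost without resmetirom replicate 2 (0.77, adjusted p = 0.0588) or 4 (0.66, adjusted p = 0.0710), without control replicate 2 (0.80, adjusted p = 0.0563) or 4 (0.74, adjusted p = 0.0843), and with library sizes only (0.50, adjusted p = 0.0875). On the log2(TPM + 1) scale Slc25a21 was at 0.30 (adjusted p = 0.227). With Mup genes left out of the library sizes it was at 0.69 (adjusted p = 0.0396). Pax9, on the opposite strand, overlaps 3.88% of its exonic bases.

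Slc25a10, the dicarboxylate carrier that passes malate or succinate against phosphate, was the highest of this group at 98.8 ± 19.8 TPM in resmetirom and 177 ± 27.0 TPM in control libraries (SD, n = 4 each), though Slc25a13 stood above it in the resmetirom libraries. It was at 144, 174, 132 and 153 CPM in resmetirom and at 192, 239, 158 and 182 CPM in control libraries. The groups overlap at 1 resmetirom library, and the change of -0.36 (SE 0.13, adjusted p = 0.157) was not called. With library sizes only it was -0.66 (adjusted p = 0.00868), and with the Mup genes left out of those sizes -0.46 (adjusted p = 0.0455). Slc25a13, the aspartate and glutamate exchanger of liver (citrin), was at 274, 314, 254 and 290 CPM in resmetirom and at 195, 286, 221 and 223 CPM in control libraries, with 0.29 (SE 0.12, adjusted p = 0.221). Its relative Slc25a12, the form of muscle and brain, was at 12.5 to 16.1 CPM in resmetirom and 11.9 to 17.3 CPM in control libraries. Slc25a11, the exchanger of malate for oxoglutarate in the malate-aspartate shuttle, averaged 60.9 ± 4.82 CPM in resmetirom and 55.4 ± 4.67 CPM in control libraries (SD, n = 4 each).

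Among the amino acid carriers Slc25a22, which imports glutamate together with a proton, was called higher. Slc25a22 (ENSMUSG00000019082, chromosome 7, 141429744 to 141437892, minus strand) was at 139, 167, 137 and 178 CPM in resmetirom and at 109, 118, 93.8 and 89.4 CPM in control libraries. All resmetirom libraries were above all control libraries. The log2 fold change was 0.60 (SE 0.12, adjusted p = 0.0128), and the call was lost without control replicate 4 (0.53, adjusted p = 0.0560). With library sizes only it was 0.29 (adjusted p = 0.119), and with Mup genes left out of those sizes 0.48 (adjusted p = 0.0213). From log2(TPM + 1) values it was 0.07 (adjusted p = 0.755). Its mean TPM was 105 ± 22.5 in resmetirom and 98.3 ± 8.20 in control libraries (SD, n = 4 each). Its relative Slc25a18, the other glutamate carrier, had 3 counts over the resmetirom and 0 over the control libraries, at the floor of 3 counts, so no fold is given.

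The other amino acid carriers were not called. Slc25a44, which carries branched-chain amino acids, was at 0.22 (SE 0.12, adjusted p = 0.384), and Slc25a38, which brings in glycine for heme synthesis, was at -0.02 (SE 0.20, adjusted p = 0.976). Slc25a29, a carrier of basic amino acids, was at 1.43 to 1.93 CPM in resmetirom and 0.682 to 1.49 CPM in control libraries. Slc25a2, whose human counterpart carries ornithine, had 4 counts in resmetirom and 16 in control libraries and was not tested.

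None of the 9 carriers of cofactors and nucleotides was called by edgeR (1 at an unadjusted p under 0.05), and DESeq2 called 1 lower, Slc25a33. Slc25a33, which imports pyrimidine nucleotides, was at 22.9, 18.8, 22.5 and 19.0 CPM in resmetirom and at 31.3, 27.4, 29.9 and 24.0 CPM in control libraries. All resmetirom libraries were below all control libraries. The change was -0.44 (SE 0.12, adjusted p = 0.0624) with edgeR and -0.43 (adjusted p = 0.0316) with DESeq2, and -0.74 (adjusted p = 0.00668) with library sizes only. An annotated antisense gene shares 14.9% of its exonic bases. Slc25a26, the carrier of the methyl donor S-adenosylmethionine, was at 7.50, 8.31, 6.66 and 6.71 CPM in resmetirom and at 5.49, 5.27, 5.73 and 6.33 CPM in control libraries, with 0.35 (SE 0.16, adjusted p = 0.280), and at -0.12 on the log2(TPM + 1) scale.

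Slc25a16, linked to coenzyme A supply, was the highest of these at 32.9 ± 4.68 TPM in resmetirom and 47.5 ± 4.80 TPM in control libraries (SD, n = 4 each). It was at 70.9, 74.9, 79.4 and 88.8 CPM in resmetirom and at 76.8, 75.9, 81.6 and 85.1 CPM in control libraries, with a change of -0.02 (SE 0.09, adjusted p = 0.937). The groups overlap in CPM, whereas on the log2(TPM + 1) scale the change was -0.52 (adjusted p = 0.0238), 1 of 4654 genes (38.1%) called lower on that scale. The coenzyme A carrier Slc25a42 was at -0.28 (SE 0.16), the peroxisomal carrier Slc25a17 at 0.10 (SE 0.10), the NAD carrier Slc25a51 at 0.18 (SE 0.11), the flavin and folate carrier Slc25a32 at 0.09 (SE 0.15) and the pyrimidine nucleotide carrier Slc25a36 at 0.02 (SE 0.37).

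Slc25a37 fell with resmetirom. It encodes a mitochondrial iron importer best known from red cell precursors, where it supplies iron for heme, and Slc25a28 is its relative in other cells. Slc25a37 (ENSMUSG00000034248, chromosome 14, 69241848 to 69285112, minus strand) was at 13.5, 17.7, 13.1 and 14.5 CPM in resmetirom and at 19.4, 31.6, 28.8 and 32.8 CPM in control libraries. The groups came closest at resmetirom replicate 2 and control replicate 1. The means were 14.7 ± 2.09 CPM in resmetirom and 28.1 ± 6.05 CPM in control libraries (SD, n = 4 each), and the log2 fold change was -0.94 (SE 0.17, adjusted p = 0.00642). It was called lower under each of the 19 alternatives run, at -1.42 to -0.86 (adjusted p = 3.79e-05 to 0.0311). On the opposite strand, Gm31748 overlaps 6.33% and Gm27223 1.53% of the exonic bases of Slc25a37. Slc25a28 was at 9.24, 10.8, 8.52 and 10.6 CPM in resmetirom and at 8.43, 11.8, 9.77 and 9.00 CPM in control libraries, with 0.01 (SE 0.15, adjusted p = 0.989). The ratio of Slc25a28 to Slc25a37 was 1.85, 1.77, 1.77 and 1.96 in resmetirom and 1.20, 0.983, 0.923 and 0.738 in control libraries (TPM).

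Of the 4 erythroid markers examined beside Slc25a37, Alas2, the first enzyme of heme synthesis in red cell precursors, fell and the 3 globin genes were not called. Alas2 was at 11.0, 6.56, 11.0 and 5.90 CPM in resmetirom and at 64.6, 60.3, 32.2 and 40.8 CPM in control libraries, with -2.52 (SE 0.29, adjusted p = 0.00158). The globin genes were on the higher side, Hba-a1 with 0.78 (SE 0.54, adjusted p = 0.546), Hbb-bs with 0.74 (SE 0.49, adjusted p = 0.524) and Hbb-bt with 0.93 (SE 0.50, adjusted p = 0.407). The sum of the 4 markers was 112 to 259 CPM in resmetirom and 97.6 to 186 CPM in control libraries, which overlap. The part of erythroid cells in the fall of Slc25a37 was not tested.

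The glutathione carriers of this group were not called. Slc25a39, which brings glutathione into mitochondria, was among the most abundant carriers with 286 ± 66.8 TPM in resmetirom and 346 ± 48.3 TPM in control libraries (SD, n = 4 each). It was at 316, 292, 288 and 301 CPM in resmetirom and at 286, 312, 225 and 233 CPM in control libraries, with 0.18 (SE 0.11, adjusted p = 0.452). Control replicate 2 lay within the resmetirom range, so the groups overlap. With library sizes only the change was -0.12, and with Mup genes left out of those sizes 0.071. Its relative Slc25a40 was at 3.06 to 6.10 CPM in resmetirom and 3.45 to 6.77 CPM in control libraries.

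Slc25a47, a carrier made mainly in liver, was the second most abundant of the 47 genes. It was at 385, 433, 476 and 405 CPM in resmetirom and at 368, 670, 461 and 379 CPM in control libraries, with -0.15 (SE 0.18, adjusted p = 0.752). Control replicate 2 was above all other libraries, and without it the change was 0.075 (adjusted p = 0.813). Slc25a45, a less characterised carrier, was at 17.5, 14.0, 19.4 and 15.4 CPM in resmetirom and at 13.6, 10.5, 7.22 and 6.18 CPM in control libraries. Its groups lay just apart, at resmetirom replicate 2 and control replicate 1. The change was 0.82 (SE 0.23, adjusted p = 0.0698) with edgeR. With DESeq2 it passed (0.82, adjusted p = 0.0155), as it did without control replicate 1 (1.05, adjusted p = 0.0124). These were 2 of 19 alternatives run. Slc25a45 did not pass with library sizes only (0.52, adjusted p = 0.108) or from log2(TPM + 1) values (0.39, adjusted p = 0.193).

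The rest of this group was not called. Slc25a46, an outer membrane protein of mitochondrial fusion, was at -0.08 (SE 0.11, adjusted p = 0.786), Slc25a48 at -0.15 (SE 0.20, adjusted p = 0.774), Slc25a34 at 0.50 (SE 0.34, adjusted p = 0.512) and Slc25a35 at 0.90 (SE 0.67, adjusted p = 0.557). Of the exonic bases of Slc25a35, 31.3% are shared with Rangrf on the opposite strand, so its value is uncertain if strand was not used in counting. Slc25a53 had 30 counts in resmetirom and 14 in control libraries, Slc25a43 had 0 in resmetirom and 1 in control libraries, and Slc25a54 had 0 counts in all libraries. These 3 genes were not tested.

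The authors' deposited table gives another split, with 12 of the 47 genes lower and 1 higher at an adjusted p under 0.05. Over all 22013 genes listed, 16019 of them with counts, the authors' deposited table has 5192 lower and 190 higher. Ucp2 was the gene listed higher, and Slc25a37 had the smallest adjusted p of the carriers, 4.41e-11, with a log2 fold change of -1.45 in the authors' deposited table. The fold changes there are ratios of mean TPM. On that scale 35 of the 47 genes had a lower mean in resmetirom than in control libraries. From log2(TPM + 1) values the median change was -0.35 for the 38 tested carriers, beside -0.41 for all tested genes. The plot of the named genes under 4 scalings shows each of them further to the left with library sizes only and on the TPM scale than with TMM factors.

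**Figure D5:**
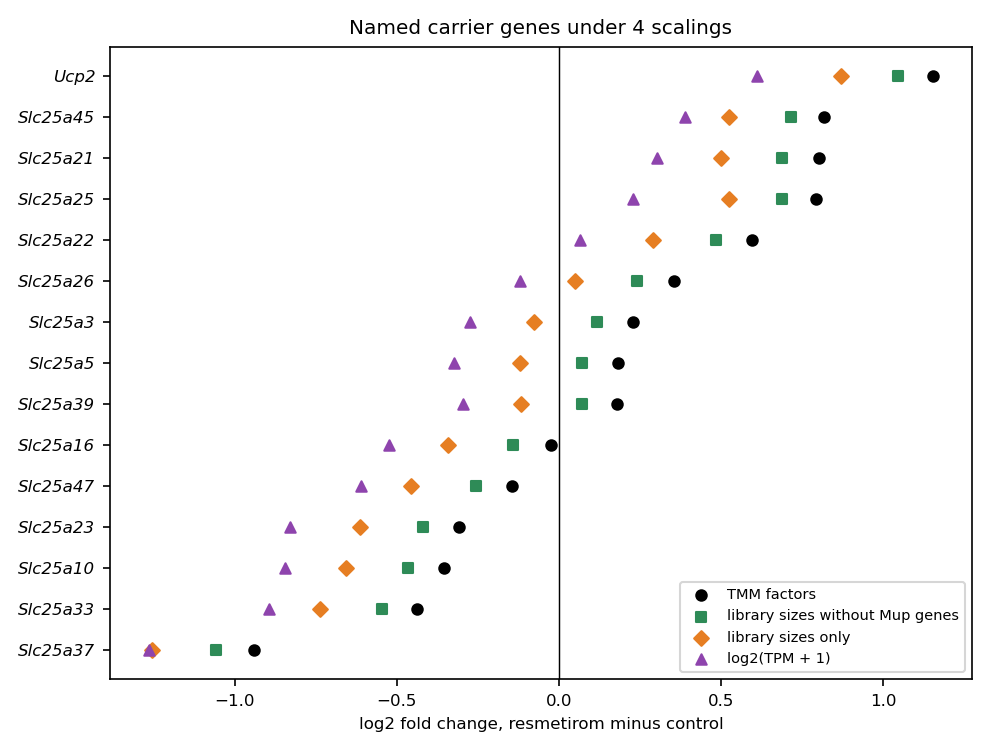
Log2 fold change of resmetirom minus control for the 15 named carriers with TMM factors (black circles), with library sizes after leaving out Mup genes (green squares), with library sizes only (orange diamonds) and on the log2(TPM + 1) scale (purple triangles). Ucp2 stays at the right end (1.15 to 0.61) and Slc25a37 at the left end (-0.94 to -1.26), while Slc25a3, Slc25a5, Slc25a39 and Slc25a26 change sign.

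Carrier proteins reach the inner membrane through the TOM pores and the small TIM chaperones, and share their work with other membrane transporters. Of 16 import genes none was called by edgeR or DESeq2. At an unadjusted p under 0.05 were 3 with edgeR (beside 2177 of all 12207 genes) and 2 with DESeq2. Their median log2 fold change was 0.11. Timm8a1, a chaperone of the intermembrane space, had the smallest p and was at 0.38 (SE 0.11, adjusted p = 0.0922), at 0.46 and past the threshold without control replicate 2 (adjusted p = 0.0491), and at -0.12 on the log2(TPM + 1) scale. Of 19 tested other transporters and channels 2 rose and 1 fell, with a median of 0.18. Those that rose were both subunits of the mitochondrial pyruvate carrier, which belongs to a separate family. Mpc1 was at 629, 550, 538 and 641 CPM in resmetirom and at 322, 359, 381 and 333 CPM in control libraries, with 0.76 (SE 0.09, adjusted p = 0.000652). Mpc2 was at 223, 164, 199 and 226 CPM in resmetirom and at 129, 123, 147 and 115 CPM in control libraries, with 0.66 (SE 0.12, adjusted p = 0.00625). The groups overlap for neither gene.

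Both calls of the pyruvate carrier were lost on the log2(TPM + 1) scale, at 0.25 (adjusted p = 0.258) for Mpc1 and 0.15 (adjusted p = 0.518) for Mpc2, and that of Mpc2 with library sizes only (0.36, adjusted p = 0.107). Sfxn5, a sideroflexin, fell to 12.2, 13.5, 11.0 and 11.0 CPM in resmetirom, against 18.3, 19.8, 18.9 and 18.2 CPM in control libraries, with -0.66 (SE 0.12, adjusted p = 0.00625). The malate-aspartate shuttle works with Slc25a11 and Slc25a13. Of 6 enzymes of this shuttle and the glycerol phosphate shuttle, edgeR called none (1 at an unadjusted p under 0.05) and DESeq2 called 1, Got1. Got1, the cytosolic aspartate transaminase, was at 454, 479, 197 and 379 CPM in resmetirom and at 114, 209, 117 and 159 CPM in control libraries, with 1.33 (SE 0.32, adjusted p = 0.0637), and passed with DESeq2 (adjusted p = 1.27e-05). Its groups overlap at resmetirom replicate 3, without which it passed (1.55, adjusted p = 0.00312).

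Of 8 markers of mitochondrial content, among them Cs, Tfam and Hspd1, none was called by edgeR or DESeq2, 1 had an unadjusted p under 0.05 with each, and the median was 0.05. With library sizes only 1 of the 8 was called lower, and on the log2(TPM + 0.1) scale 4 were. The shares of all genes called lower there were 16.1% and 31.7%. Lonp1, the matrix protease, had the smallest p with edgeR and was at -0.33 (SE 0.10, adjusted p = 0.103). It was called lower under 4 of 19 alternatives, among them library sizes without Mup genes (-0.44, adjusted p = 0.0209). Of 6 hepatocyte markers, Cps1, the first enzyme of the urea cycle, rose by 0.76 (SE 0.15, adjusted p = 0.00988) and the median was 0.35. DESeq2 called 3 of the 6 higher and none lower, whereas with library sizes only 0 were called higher and 1 lower, so the call of Cps1 was lost there. Their summed level was 88642 to 95802 CPM in resmetirom and 69349 to 78159 CPM in control libraries, which do not overlap. Most of the sum was Alb, with means of 73186 CPM in resmetirom and 58272 CPM in control libraries, not called by edgeR (adjusted p = 0.0811). The groups overlap for Ass1, Hnf4a and Ttr, and Ttr was at -0.09. In TPM the sum was 52656 to 77335 in resmetirom and 68540 to 74310 in control libraries, which overlap, and its part in the carrier results was not tested. Fabp4, the only marker of 5 for fat cells tested by edgeR, fell, with a log2 change of -0.996 (SE 0.17, adjusted p = 0.00413). Adipoq and Lep had 0 CPM in all libraries. Plin1 had 0 counts in resmetirom and 3 in control libraries, and Cidea had 21 in resmetirom and 45 in control libraries. Of 4 tested markers each of sinusoidal endothelium, stellate cells and cholangiocytes none was called by edgeR or DESeq2. At an unadjusted p under 0.05 edgeR had 2, 1 and 1 of them, and DESeq2 2, 1 and 2.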

How the data were processed

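Per the file headers, the authors deposited 1 table with whole-number counts per gene for 8 mouse liver libraries, TPM values, a log2 fold change, and a p-value adjusted for multiple tests. Build mm10 and the tools RSEM, edgeR and DESeq2 stand in the submitters' processing notes beside HISAT2 2.1.0, StringTie 1.3.1, Bowtie2 2.2.8 and fastp 0.18.0, with no role given for any of them. TPM fixes the sum of each library, so abundant genes that change shift all others.

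Samples were grouped by title (4 resmetirom, 4 control), and 0 per-sample columns stayed unmatched. Depth was 16787561 to 19887539 counts per library, and intervals and floors cover counting error only. The test on counts was that of edgeR 4.0.16, run in R 4.3.3 (filterByExpr, TMM, robust glmQLFit and glmQLFTest), with Benjamini-Hochberg adjustment over 12207 genes. SE values are the size of a change over the root of its F statistic. DESeq2 1.42.0 and limma 3.58.1 served as alternatives. The procedure was tested on simulated counts. The chi-square per degree of freedom between libraries of a group was 13.2 or more.

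The carrier genes, role groups, lists and markers were chosen with earlier results of these data known. Per-library values are given for called genes, for genes whose groups do not overlap, and for the most abundant gene of each role group. From each list, up to 4 called genes or the one with the smallest p are named. Alas2, the globins, Cps1 and the remaining genes with values were added after their values were seen. Positions are from GENCODE M21 and promoters from RefSeq, both on GRCm38, which mm10 names. A carrier gene that was tested and counted is not reported here by name.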

Additional observations from a re-analysis of the deposited data

How the results depend on the processing

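Over 19 alternatives the direction of the 4 called carriers did not turn. With all libraries 3 carriers were called higher and 1 lower. The counts were 5 and 2 with DESeq2, 1 and 4 with library sizes only, 1 and 12 from log2(TPM + 1) and 0 and 10 on the log2(TPM + 0.1) scale (limma; 1 higher at an unadjusted p under 0.05). With library sizes only after leaving out Mup genes, a choice made after seeing the data, they were 3 and 4. Over all genes, calls were 317 higher and 243 lower with TMM factors, 523 and 387 with DESeq2, 151 and 1961 with library sizes only, 121 and 4654 from log2(TPM + 1), 112 and 3865 from log2(TPM + 0.1) and 227 and 438 without Mup genes. Leaving out 1 library at a time gave 1 to 4 carriers higher and 1 lower, beside 182 to 313 higher and 149 to 238 lower over all genes. Without control replicate 4 the counts called higher were 1 carrier and 182 of all genes (1.47%).

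Some differences that were not called turned sign with the scaling. The scaling also moved the median of all genes, to -0.31 with library sizes only, -0.41 from log2(TPM + 1) and -0.50 from log2(TPM + 0.1). With library sizes only the differences that turned were -0.12 for Slc25a5, -0.078 for Slc25a3 and -0.12 for Slc25a39. With Mup genes left out of those sizes these genes were at 0.071, 0.12 and 0.071. With TPM and a pseudocount of 1 or 0.1 they were -0.32 and -0.32 for Slc25a5, -0.27 and -0.28 for Slc25a3, -0.12 and -0.14 for Slc25a26, -0.30 and -0.30 for Slc25a39, and -0.12 and -0.12 for Timm8a1. Leaving out 1 library at a time, Slc25a16 was at -0.0896 to 0.021 (above 0 without resmetirom replicate 1, and at 0.0065 without control replicate 4) and Slc25a47 at -0.25 to 0.075 (above 0 without control replicate 2), and the cause was not tested.

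With the replicate number as a block, 2 carriers were called higher and 1 lower, and over all genes 240 and 166. Slc25a21 was not called (0.77, adjusted p = 0.0934). Whether the numbers pair the libraries is not stated in the labels. Deviations of same-numbered libraries correlated at -0.33 to 0.18 over genes, and 1 of 4 resmetirom libraries correlated best with its own number. With 4 libraries per group, these correlations are too few to decide it. Depth limits Ucp1, Ucp3 and the other 7 carriers that were not tested.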
